A study of Homo sapiens with 60 samples.

Results

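Chromatin at 6 genes induced by the MAPK pathway, DUSP6, DUSP4, SPRY2, SPRY4, ETV4 and ETV5, was examined in PC9 cells, a human lung adenocarcinoma line. Every peak was taken that overlapped 1 of the genes or the 25 kb on each side of it (GRCh37), whatever its reproducibility. The windows held 286 of the 507516 peaks deposited in 24 lists, or 0.0564%. Of these, 279 were peaks of H3K27Ac (an acetylated histone found at active promoters and enhancers), RAD21 (a subunit of the cohesin ring) or PDS5A (a regulator of cohesin), and 7 were peaks of the IgG control.

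The assay was CUT&RUN, which releases DNA fragments from chromatin where an antibody sits and sequences them. The 3 genotypes were wild-type (WT) PC9, METTL7A knockout (KO), and Rescue, which is the knockout with METTL7A-MYC-tag_FLAG overexpressed, so that Rescue cells carry the deletion too. Each was untreated or kept under osimertinib, an EGFR inhibitor, for 6 to 8 weeks at a dose raised from 100 nM. The labels do not say whether the knockout is 1 clone or which promoter drives the rescue construct, and with 1 joint list of 2 replicates for each antibody, genotype and treatment no comparison below could be tested.

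EGFR signals through RAS, RAF and MEK to the kinase ERK, and ERK activity induces genes that include dampers of the same pathway. DUSP6 is a cytoplasmic phosphatase of ERK and DUSP4 a nuclear MAP kinase phosphatase. SPRY2 and SPRY4 are Sprouty proteins, which restrain signalling from receptor tyrosine kinases upstream of ERK. ETV4 and ETV5 are ETS transcription factors of the PEA3 group whose expression follows ERK activity. All 6 are commonly read as transcriptional indicators of MAPK output.

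RefSeq promoter entries on GRCh38.p14 were matched for 3 of the 6 genes, DUSP6, SPRY2 and SPRY4. The 250 bases before the listed start are shown because 119 of the 279 peaks lay within 1 kb of a gene's 5′ end. The positions are chr12:89352502-89352751 for DUSP6, chr13:80341127-80341376 for SPRY2 and chr5:142324248-142324497 for SPRY4, each read 5′ to 3′ on the minus strand. The SPRY4 start lies inside the RefSeq extent of the gene. Capitals mark matches to the motifs searched.
DUSP6: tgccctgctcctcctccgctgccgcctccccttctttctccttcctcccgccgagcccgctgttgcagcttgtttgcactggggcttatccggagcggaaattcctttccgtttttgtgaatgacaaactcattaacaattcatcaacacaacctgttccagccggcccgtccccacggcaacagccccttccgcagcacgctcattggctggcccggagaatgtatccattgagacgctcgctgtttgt
SPRY2: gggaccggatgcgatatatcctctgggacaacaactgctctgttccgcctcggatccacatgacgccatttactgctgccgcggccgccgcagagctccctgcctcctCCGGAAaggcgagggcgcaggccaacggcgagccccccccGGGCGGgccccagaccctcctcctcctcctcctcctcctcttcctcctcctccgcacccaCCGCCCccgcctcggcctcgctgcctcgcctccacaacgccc
SPRY4: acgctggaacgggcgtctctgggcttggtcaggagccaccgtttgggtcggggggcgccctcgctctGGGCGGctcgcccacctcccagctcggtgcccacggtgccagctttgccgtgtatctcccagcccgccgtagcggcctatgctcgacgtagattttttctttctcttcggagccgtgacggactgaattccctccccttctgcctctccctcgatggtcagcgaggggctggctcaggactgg

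The motifs searched on both strands were CCGGAA (bound by ETS factors), TGANTCA (AP-1), TGACGTCA (the cyclic AMP response element), CACGTG (the E-box) and GGGCGG (bound by SP1). The 250 bases shown for SPRY2 held 1 ETS match, whose first base lies at -142 from the start, and 2 SP1 matches at -102 and -42. RefSeq lists 2 further starts for SPRY2, whose 250 bases, not shown, held 0 matches to any motif, with a G+C content of 62.4% and 41.2%. SPRY4 held 1 SP1 match at -183, and DUSP6 held none of the 5. Among the 35116 promoter entries of the same length, 14.5% held the ETS letters, 42.6% SP1, 6.57% AP-1, 6.34% the E-box and 1.65% the cyclic AMP response element. The G+C content was 57.2% for DUSP6, 70.4% for the SPRY2 start shown and 65.6% for SPRY4, beside a median of 58% over all entries. Such letters are a description of the window and not evidence of binding.

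All 6 genes lie on the minus strand, so the 5′ end of each is the higher coordinate. In GRCh37, DUSP6 spans chr12:89741837-89746296 and DUSP4 spans chr8:29190579-29208267. SPRY2 lies at chr13:80910111-80915086 and SPRY4 at chr5:141689992-141704620. ETV4 lies at chr17:41605211-41623800 and ETV5 at chr3:185764106-185826901. Distances below are in bp from the 5′ end, positive into the gene and negative upstream. By RefSeq names on GRCh38.p14, the windows also touch POC1B-DUSP6 beside DUSP6, DHX8 beside ETV4, SPRY4-AS1 and SPRY4-IT1 beside SPRY4, and ETV5-AS1 beside ETV5, so a peak in a window need not belong to the named gene.

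Each deposited peak carried a −log10 p for each of its 2 replicates and a global IDR, the irreproducible discovery rate. The IDR is low where a peak ranks high in both replicates. A peak with an IDR of 0.05 or less is called reproducible here. A peak outside that limit can be weak in both replicates as well as unlike between them. PDS5A at DUSP6 in untreated WT cells, for example, had 6.88 and 7.11 with an IDR of 0.601. The −log10 p values are the authors' own and rank peaks within a list. They are set side by side between lists below only to show both replicates. Of the 279 peaks of the 3 antibodies, 87 were reproducible: 33 of 127 H3K27Ac peaks, 31 of 72 RAD21 peaks and 23 of 80 PDS5A peaks. In the whole lists the reproducible share of deposited peaks ran from 21.7% to 36.6% for H3K27Ac, from 23.8% to 42.9% for RAD21 and from 9.87% to 42.2% for PDS5A. Just inside the limit lay PDS5A at DUSP6 in treated WT cells, with an IDR of 0.0470, and just outside it H3K27Ac at SPRY4 in untreated Rescue cells, with 0.0506. The IgG peaks in the windows lay at ETV4, ETV5, SPRY2 and SPRY4, and 0 of 7 were reproducible.

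Nearly every list held a peak at the 5′ end of each gene, and what varied was whether that peak was reproducible. Within 1 kb of the 5′ ends, 105 of 108 combinations of gene and list had a deposited peak and 46 had a reproducible one: 16 of 36 with H3K27Ac, 17 of 36 with RAD21 and 13 of 36 with PDS5A. Over the 18 lists of the 3 antibodies, the 5′ end was reproducible in 11 for SPRY2, 10 for DUSP6, 8 for SPRY4, 7 for DUSP4 and 5 each for ETV4 and ETV5. By condition, 6 of 18 combinations were reproducible in untreated WT cells and 10 in treated WT cells. The corresponding numbers were 4 and 5 in KO cells and 10 and 11 in Rescue cells. The lists themselves differed in length: the treated WT lists held 2-fold, 4.51-fold and 7.16-fold as many reproducible H3K27Ac, RAD21 and PDS5A peaks as the untreated ones. Without a GRCh37 annotation the share over the 5′ ends of all genes was not computed, so these counts describe the 6 genes and do not set them apart.

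**Figure D1:**
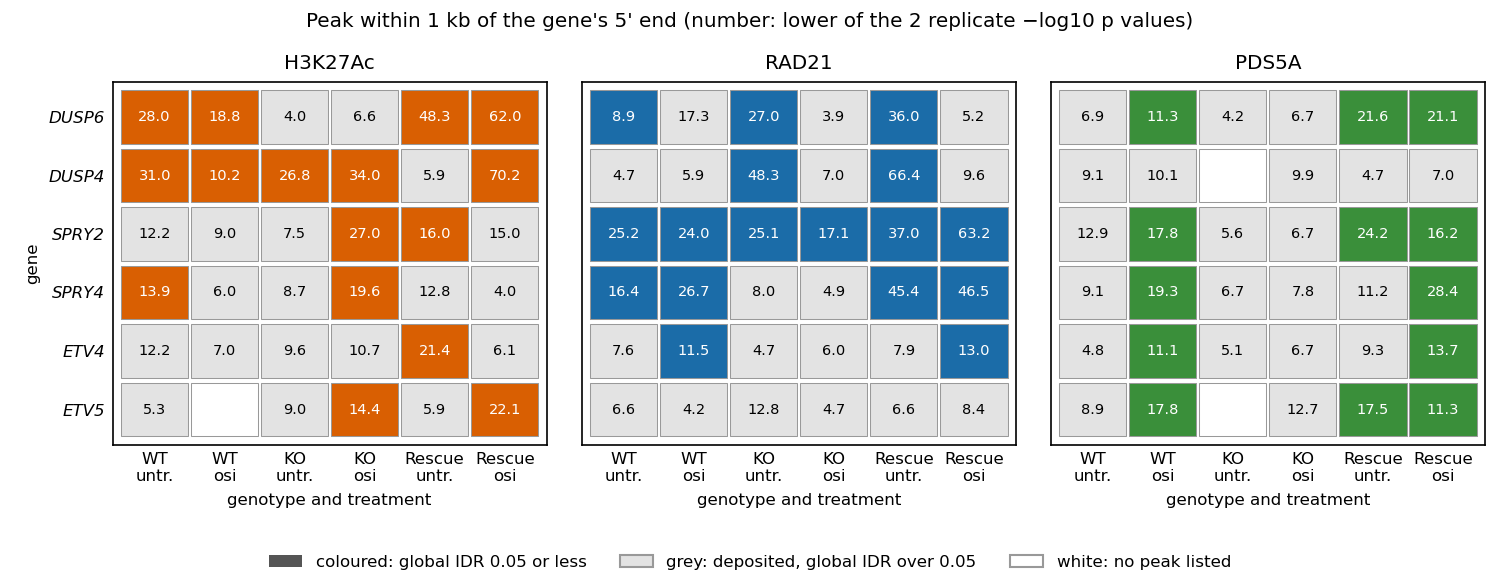
State of the 5′ end of each gene (rows) in each genotype and treatment (columns) for H3K27Ac, RAD21 and PDS5A. The number is the lower of the 2 replicate −log10 p values of the peak within 1 kb, coloured where the global IDR was 0.05 or less, grey where a peak was deposited with a higher IDR and white where none was listed. PDS5A is coloured in 5 of 6 genes in treated WT and treated Rescue cells and in 3 of 6 in untreated Rescue cells. It is coloured in 0 of 6 in untreated WT cells and in both KO columns. Of all deposited PDS5A peaks, 36.1%, 42.2% and 41.8% were reproducible in the treated WT, treated Rescue and untreated Rescue lists. The shares were 12.2% in untreated WT, 9.87% in untreated KO and 22.3% in treated KO lists.

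The genes differed in which antibody gave the reproducible 5′ ends. Of 6 lists each, H3K27Ac, RAD21 and PDS5A were reproducible in 4, 3 and 3 at DUSP6 and in 5, 2 and 0 at DUSP4. At SPRY2 they were reproducible in 2, 6 and 3, and at SPRY4 in 2, 4 and 2. At ETV4 the counts were 1, 2 and 2, and at ETV5 they were 2, 0 and 3. SPRY2 and SPRY4 shared the same state in 13 of 18 lists, as did SPRY4 and ETV4, and these pairs were the most alike. DUSP4 was least alike with SPRY2 and with ETV4, at 6 of 18 each. These are counts over lists that share cells and libraries, and no test was made of them.

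The phosphatase genes carried the broadest 5′-end peaks. At DUSP6 a single H3K27Ac peak of about the gene's own length lay over the 5′ end, from -2925 to 1110 in untreated WT cells, with replicate values of 28.0 and 29.5. Treated WT cells had 19.3 and 18.8, over a shorter piece from -2516 to -784. Untreated and treated Rescue cells had 48.3 and 61.7, and 68.5 and 62.0. In KO cells the same region was listed but the replicates differed, 32.6 against 3.97 untreated and 38.4 against 6.62 treated, and neither was reproducible. WT and Rescue cells thus had a reproducible H3K27Ac peak at DUSP6 in both treatments and KO cells in neither, with 1 of the 2 KO replicates high each time.

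Whether the RAD21 peak at DUSP6 was reproducible was split by treatment in place of genotype. It was reproducible in all 3 untreated lists, with replicate values of 45.5 and 8.89 in WT, 59.5 and 27 in KO and 36 and 42.2 in Rescue cells. It was not in the 3 treated lists, with 17.3 and 21.1 in WT, 3.93 and 16.6 in KO and 67.5 and 5.25 in Rescue cells. The treated WT peak came close to the limit, with an IDR of 0.0617. By the lower replicate value among all deposited peaks of its list, it lay at percentile 74.0 and the untreated WT peak at 71.6. In KO cells the percentiles were 94.4 untreated and 6.07 treated, and in Rescue cells 93.7 and 14.8. PDS5A at DUSP6 was reproducible in treated WT cells at 17.9 and 11.3, in untreated Rescue cells at 21.6 and 33.7 and in treated Rescue cells at 42.0 and 21.1. In the 3 other lists, untreated WT and both KO lists, no replicate value of PDS5A there exceeded 9.20.

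At DUSP4 an H3K27Ac domain of 6439 to 6668 bp covered the 5′ end in 4 lists. Its replicate values were 37.6 and 31.0 in untreated WT, 40.2 and 26.8 in untreated KO, 54.2 and 34.0 in treated KO and 70.2 and 73.5 in treated Rescue cells, and all 4 were reproducible. In treated WT cells the region was listed as separate pieces. A piece from 67 to 1918 had replicate values of 10.2 and 20.1 and was reproducible, whereas 1 from -1457 to -243 with 7.85 and 8.37 was not. In untreated Rescue cells it was listed as part of a single 14042-bp peak, with values of 5.94 and 7.46 and an IDR of 0.584. The domain was therefore reproducible in both KO lists, where the H3K27Ac peak of DUSP6 was deposited without being reproducible.

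RAD21 over the DUSP4 5′ end was reproducible in untreated KO cells, at 55.2 and 48.3, and in untreated Rescue cells, at 67.1 and 66.4. The 4 other lists had a peak of similar extent in which 1 replicate was several times the other: 65.4 and 4.67 in untreated WT, 84.3 and 5.87 in treated WT, 7.05 and 50.8 in treated KO and 108 and 9.63 in treated Rescue cells. DUSP4 was the gene without a reproducible PDS5A peak at its 5′ end in any of the 6 lists, and untreated KO cells had none listed there. No IgG peak overlapped any peak of the DUSP6 or DUSP4 5′ ends.

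SPRY2 was the gene with reproducible RAD21 at its 5′ end in all 6 lists. Replicate values there were 54.2 and 25.2 in untreated WT, 62.8 and 24 in treated WT, 25.1 and 34.2 in untreated KO, 17.1 and 29.7 in treated KO, 37.0 and 56.3 in untreated Rescue and 156 and 63.2 in treated Rescue cells. A separate cohesin site lay upstream, between -2851 and -1368. RAD21 was reproducible at it in 5 of 6 lists, all but treated KO, and PDS5A in 5 of 6, all but untreated WT. H3K27Ac was listed at this upstream site in 4 lists and reproducible in 0.

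Treated WT cells show the upstream site for both proteins. In these cells the upstream RAD21 peak, chr13:80916533-80917469, had replicate values of 126 and 39.6, and the upstream PDS5A peak, chr13:80916454-80917552, had 73.1 and 46.9. PDS5A there was also reproducible in untreated KO cells, at 11.8 and 32.0, and this was the single reproducible PDS5A peak of all 6 genes in that list. At the SPRY2 5′ end itself, PDS5A was reproducible in treated WT cells, at 30.6 and 17.8, and in untreated and treated Rescue cells, at 24.2 and 27.5, and at 54.6 and 16.2. Treated KO cells had 6.73 and 15.3, with an IDR of 0.209.

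H3K27Ac at the SPRY2 5′ end was reproducible in treated KO cells, at 28.0 and 27, and in untreated Rescue cells, at 16.0 and 30.1. Treated WT cells had 8.99 and 22.7 with an IDR of 0.0657, and treated Rescue cells 37.7 and 15 with 0.0534, both near the limit. Untreated WT cells had 12.2 and 18.8 and untreated KO cells 17.4 and 7.52. The 5′ end of SPRY2 overlapped an IgG peak of treated WT cells, from -610 to 1070, with values of 8.40 and 6.57 and an IDR of 0.383. The upstream site overlapped none.

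**Figure D2:**
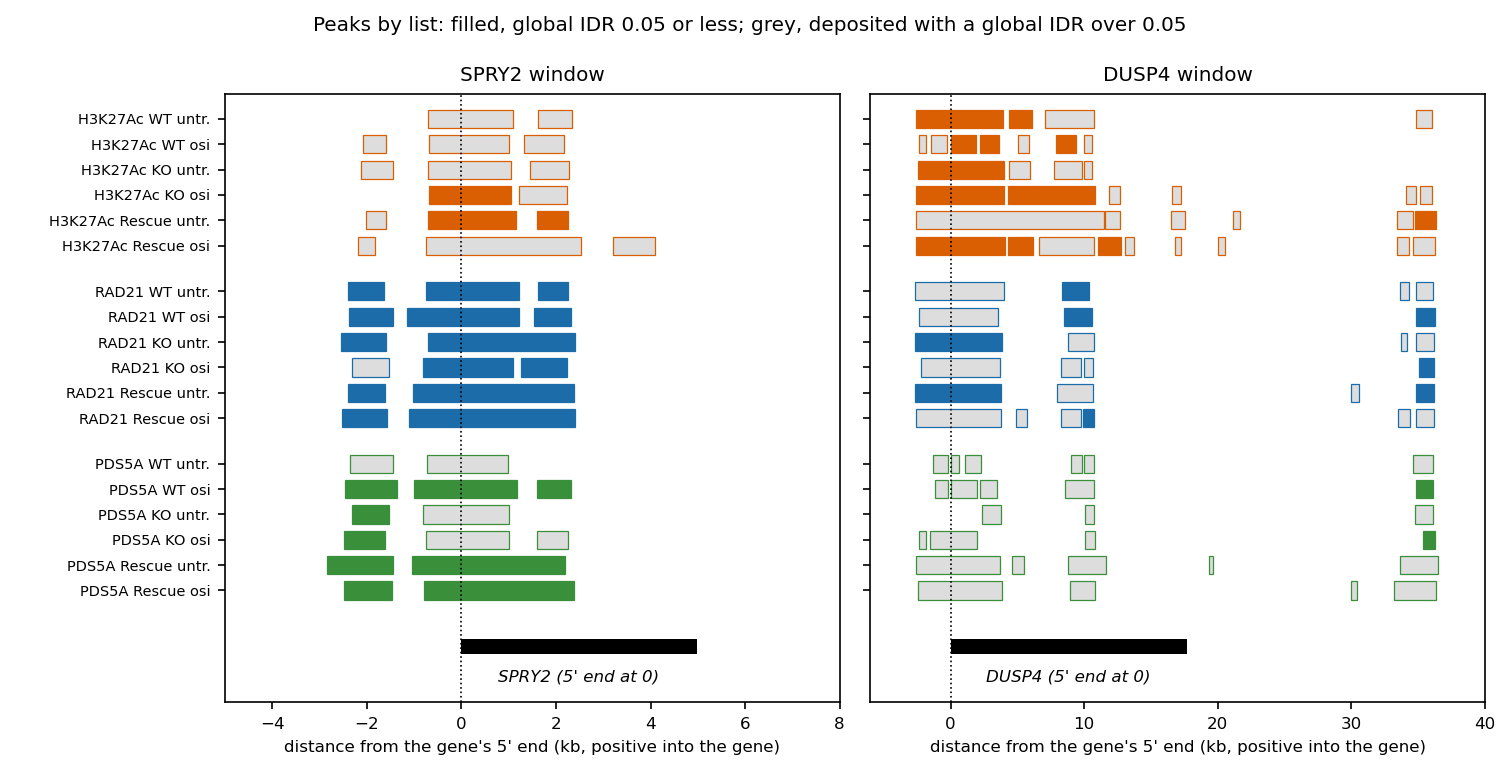
Peaks of each list over the SPRY2 window (left) and the DUSP4 window (right) by distance from the gene's 5′ end in kb, with the gene as a black bar; filled boxes had a global IDR of 0.05 or less and grey boxes a higher one. RAD21 and PDS5A boxes repeat upstream of SPRY2, where RAD21 and PDS5A are each filled in 5 of 6 lists, and the DUSP4 5′ end carries the wide H3K27Ac domain.

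SPRY4 resembled SPRY2 in RAD21 except in KO cells. RAD21 over its 5′ end was reproducible in untreated and treated WT cells, at 69.9 and 16.4, and at 98.7 and 26.7. It was also reproducible in untreated and treated Rescue cells, at 80.3 and 45.4, and at 81.8 and 46.5. Both KO lists had a peak of like extent that was not reproducible, with 35.7 and 7.96 untreated and 4.91 and 33.0 treated. PDS5A was reproducible in treated WT cells, at 31.0 and 19.3, and in treated Rescue cells, at 69.5 and 28.4, and in no untreated list. WT and Rescue cells thus shared RAD21 and, under osimertinib, PDS5A at SPRY4, each reproducible, and the KO lists had neither in that form.

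H3K27Ac at SPRY4 flanked the 5′ end as a pair of peaks in several lists. In untreated WT cells the upstream peak, chr5:141704899-141706346, had 20.3 and 13.9 and the downstream peak 19 and 13.9. In treated KO cells the upstream peak, chr5:141705312-141706530, had 23.9 and 19.6 and the downstream peak 19.1 and 17.4. All 4 of these were reproducible. Treated WT and untreated KO cells had peaks on both sides with no replicate value above 11.7, and Rescue cells had 1 long peak, at 27.2 and 12.8 untreated and at 26.6 and 3.98 treated, none of them reproducible. An IgG peak of treated KO cells also lay within 1 kb of this 5′ end, with values of 6.68 and 6.41 and an IDR of 0.755.

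The ETS factor genes had the fewest reproducible 5′ ends. At ETV4 the RAD21 peak was reproducible in treated WT cells, at 22.8 and 11.5, and in treated Rescue cells, at 17.1 and 13.0, and in none of the untreated or KO lists. PDS5A followed the same lists, at 26.2 and 11.1 in treated WT cells and 23.2 and 13.7 in treated Rescue cells. Treated KO cells had 5.96 and 9.08 for RAD21 and 6.73 and 12.7 for PDS5A. H3K27Ac at ETV4 was reproducible in untreated Rescue cells alone, at 21.4 and 28.9, while untreated WT, untreated KO and treated KO cells lay just beyond the limit, with IDRs of 0.0702, 0.0643 and 0.0655.

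At ETV5 H3K27Ac was reproducible in treated KO cells, at 14.7 and 14.4, and in treated Rescue cells, at 30.7 and 22.1. Treated WT cells had no H3K27Ac peak listed at the ETV5 5′ end. The treated KO peak, chr3:185826036-185828214, was the single H3K27Ac peak at these genes that was reproducible in treated KO cells with nothing deposited over it in treated WT cells. PDS5A was reproducible at ETV5 in treated WT cells, at 32.9 and 17.8, and in untreated and treated Rescue cells, at 28.3 and 17.5, and at 34.5 and 11.3. RAD21 was listed at ETV5 in all 6 lists and reproducible in 0, with the lower replicate value between 4.18 and 12.8.

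The 5′ ends of ETV4, ETV5 and SPRY4 coincided with IgG peaks, as did that of SPRY2 above. IgG values at ETV4 were 4.95 and 5.38 in untreated WT and 9.60 and 3.48 in treated WT cells. At ETV5 they were 12.2 and 9.93 in treated WT and 10.1 and 6.90 in treated KO cells, the former with an IDR of 0.0725. At SPRY4 they were 6.68 and 6.41 in treated KO cells. Over all 6 genes, 29 of the 87 reproducible peaks overlapped an IgG peak of any cells and 7 an IgG peak of the same cells. By antibody the numbers were 7 of 33 H3K27Ac peaks, 12 of 31 RAD21 peaks and 10 of 23 PDS5A peaks. In the whole lists 37.2% to 58.4% of reproducible H3K27Ac peaks lay on an IgG peak, 31.9% to 52.9% of RAD21 and 29.6% to 52.0% of PDS5A. The part of IgG background in the ETV and SPRY values was not tested.

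**Figure D3:**
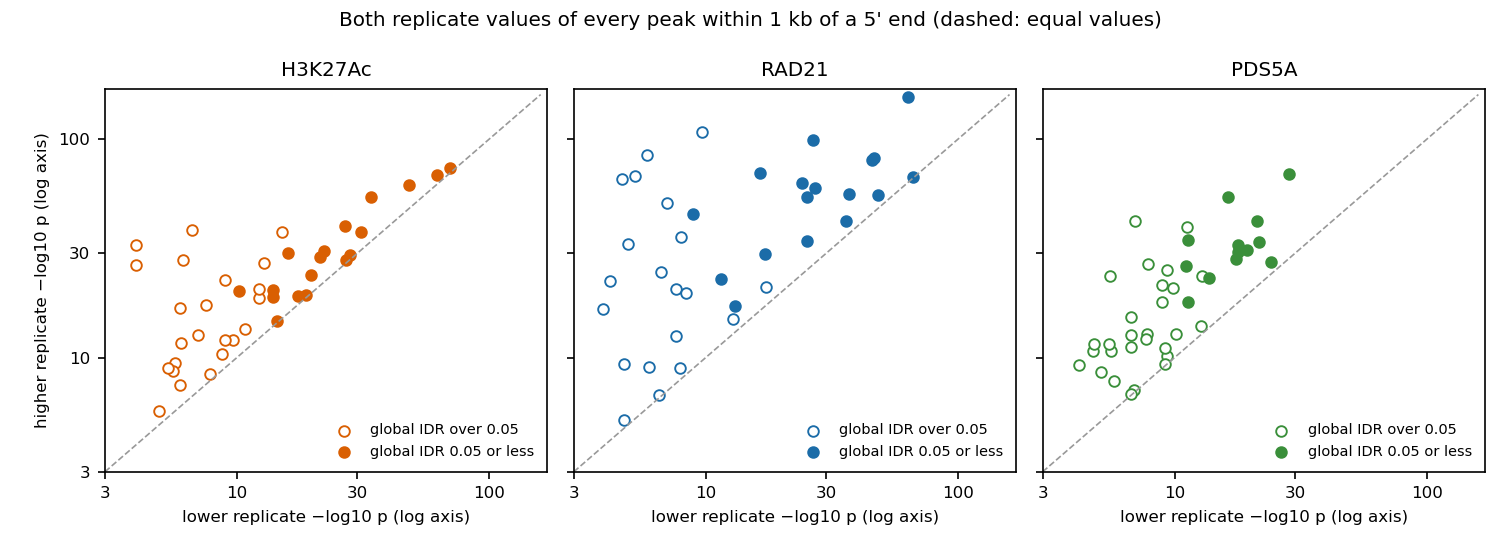
Higher against lower replicate −log10 p (both on log axes) of the peak within 1 kb of each 5′ end in each list, by antibody, filled where the global IDR was 0.05 or less; the dashed line marks equal values. Several open RAD21 points lie far above the line, such as DUSP4 in treated Rescue cells at 108 and 9.63.

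Osimertinib in WT cells went with more reproducible PDS5A peaks at these genes and with no such difference in H3K27Ac or RAD21. PDS5A had 0 reproducible of 12 deposited peaks in untreated WT cells and 8 of 18 in treated WT cells, with at least 1 at each of the 6 genes. The 0 of 12 has a Wilson 95% interval reaching 24.2%, which covers counting error only. In the whole lists 12.2% and 36.1% of deposited PDS5A peaks were reproducible, so the list as a whole differed in the same direction, by 7.16-fold in number. All 8 treated peaks lacked a reproducible untreated counterpart, beside 88% of the treated list. Of these, 7 had a deposited untreated peak under them. Reproducible peaks found untreated alone were 0 of 0, beside 14.2% of that list. When both lists were shortened to the length of the untreated one, 0 and 1 peaks were left.

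The PDS5A peaks of treated WT cells without a reproducible untreated counterpart lay at the 5′ ends of DUSP6, SPRY2, SPRY4, ETV4 and ETV5, and at distal sites of SPRY2 and DUSP4. They included chr12:89747183-89748831 at DUSP6, chr17:41622132-41624187 at ETV4, chr3:185826010-185827897 at ETV5 and chr5:141703254-141704783 at SPRY4. The DUSP4 peak, chr8:29172124-29173434, had replicate values of 22.0 and 15.1 and lay beyond the 3′ end of the gene. Leaving out the peaks on any IgG peak kept 4 of the 8.

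For H3K27Ac, WT cells had 5 reproducible of 14 deposited peaks untreated and 4 of 20 treated, beside 22.6% and 23.1% of the lists. The treated list was 2-fold the length of the untreated one. Of the 4 treated peaks 1 lacked a reproducible untreated counterpart, beside 68.5% of the list, and of the 5 untreated peaks 3 lacked a treated one, beside 37.1%. The 1 was chr8:29198883-29200377 inside DUSP4, with 15.2 and 18.8. The 3 were the pair flanking SPRY4 and chr8:29202165-29203915 in DUSP4, with 17.6 and 16.6. With lists of equal length the counts were 5 and 1, and at an IDR of 0.01 they were 2 and 0. Counting every deposited peak turned the order, to the 14 and 20 above.

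For RAD21, WT cells had 6 reproducible of 11 deposited peaks untreated and 7 of 13 treated, beside 23.8% and 42.9% of lists that differed 4.51-fold in number. Treated peaks without a reproducible untreated counterpart were 2 of 7, beside 80.6% of the list, namely chr17:41622110-41624156 at ETV4 and chr8:29172021-29173402 beyond DUSP4. The reverse was 1 of 6, beside 12.2%, namely chr12:89744545-89749073 at DUSP6. Equal list lengths turned the direction, to 6 and 2, as did covered length, at 13429 bp and 12883 bp, and leaving out peaks on an IgG peak of the same cells, at 6 and 5. The RAD21 peaks of these genes were therefore mostly listed in WT cells before and after treatment.

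In KO cells the same comparison gave more reproducible H3K27Ac peaks at these genes and little else. H3K27Ac had 1 reproducible of 13 deposited peaks untreated, the DUSP4 domain, and 7 of 28 treated, at DUSP4, SPRY2, SPRY4 and ETV5, beside 23.2% and 21.7% of the lists. Of the 7, 6 lacked a reproducible untreated counterpart, beside 55% of the list, and the reverse was 0 of 1, beside 30%. With lists of equal length the counts were 1 and 5, and without peaks on any IgG peak 1 and 4. The treated lists held 1.55-fold, 0.814-fold and 4.49-fold as many reproducible H3K27Ac, RAD21 and PDS5A peaks as the untreated ones. RAD21 had 4 of 11 untreated and 3 of 11 treated, beside 28.2% and 24.7%. Of these, 1 of 3 and 3 of 4 lacked a counterpart, beside 30.7% and 43.6%. PDS5A had 1 of 9 and 2 of 13, beside 9.87% and 22.3%, with 1 of 2 and 0 of 1 lacking a counterpart, beside 81.5% and 17.3%. Both treated PDS5A peaks were distal ones, upstream of SPRY2 and beyond DUSP4. Within 50 kb in place of 25 kb, the RAD21 counts in KO cells were 4 and 5, which turns their order, and with equal list lengths the PDS5A counts were 1 and 0, which turns it too.

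In Rescue cells all 3 antibodies had several reproducible peaks in both treatments. The treated lists held 0.917-fold, 1.21-fold and 0.816-fold as many reproducible H3K27Ac, RAD21 and PDS5A peaks as the untreated ones. H3K27Ac had 6 of 22 untreated and 10 of 30 treated, beside 36.6% and 29.3% of the lists. Treated peaks without an untreated counterpart were 7 of 10, beside 28.6%, and untreated ones without a treated counterpart 4 of 6, beside 35.4%. RAD21 had 6 of 11 and 5 of 15, beside 37.2% and 42.2%, with 2 of 5 and 3 of 6 lacking a counterpart, beside 36.6% and 23.3%. PDS5A had 5 of 15 and 7 of 13, beside 41.8% and 42.2%, with 2 of 7 and 0 of 5 lacking one, beside 21.5% and 35.9%. Counting every deposited peak turned the order for RAD21, to 11 and 15, and for PDS5A, to 15 and 13.

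**Figure D4:**
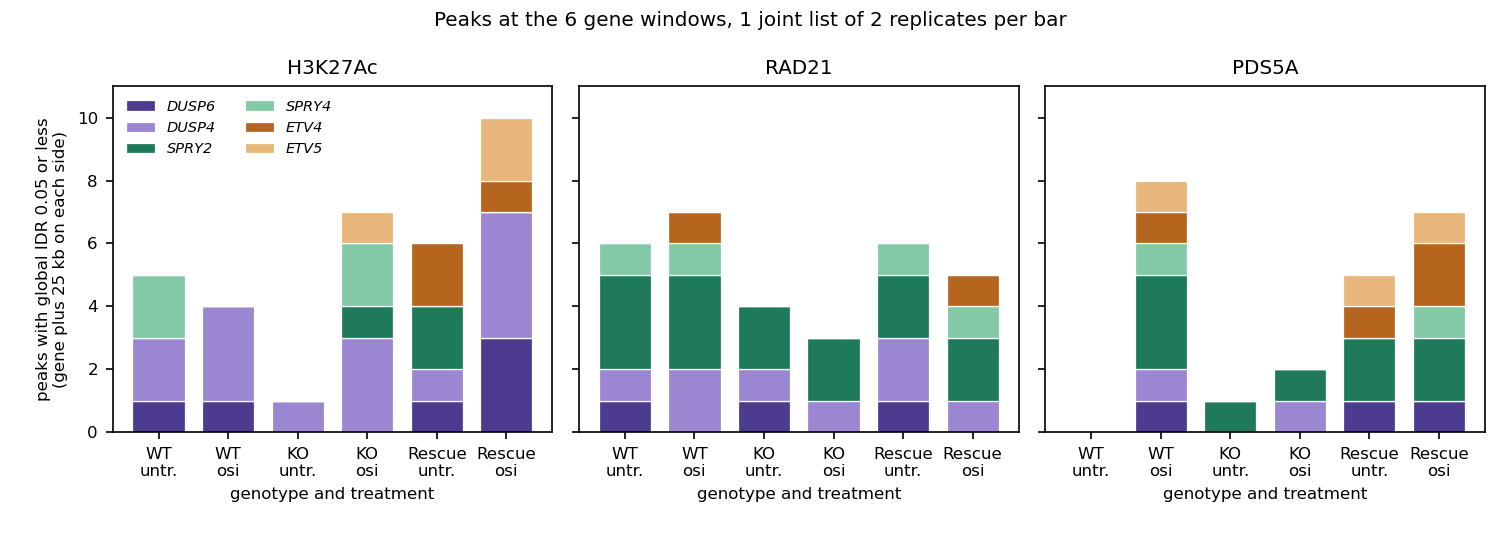
Number of reproducible peaks (global IDR 0.05 or less) in the 6 gene windows, 1 joint list of 2 replicates per bar, coloured by gene. PDS5A goes from 0 to 8 peaks in WT cells, 1 to 2 in KO cells and 5 to 7 in Rescue cells, and H3K27Ac from 5 to 4, 1 to 7 and 6 to 10. The whole lists change 7.16-fold, 4.49-fold and 0.816-fold for PDS5A, and 2-fold, 1.55-fold and 0.917-fold for H3K27Ac.

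Untreated KO cells had fewer reproducible H3K27Ac peaks at these genes than untreated WT cells, and cohesin counts that lay closer together. H3K27Ac had 5 in WT and 1 in KO cells, while the KO list was 1.08-fold the WT list. KO peaks lacking a reproducible WT counterpart were 0 of 1, beside 40.9% of the list, and the WT peaks lacking a KO one were 4 of 5, beside 36.5%. Those 4, at DUSP6, DUSP4 and SPRY4, each had a deposited KO peak under them, and counting every deposited peak gave 14 and 13. RAD21 had 6 and 4, with 1 of 4 and 2 of 6 lacking a counterpart, beside 47.3% and 23.6%. An IDR of 0.01 turned that order, to 3 and 4, and so did covered length, to 13429 bp and 14799 bp. PDS5A had 0 and 1, with 1 of 1 and 0 of 0 lacking a counterpart, beside 28.6% and 62.9%; with every deposited peak the order turned, to 12 and 9. These comparisons share the untreated WT and KO lists with those of osimertinib above.

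Under osimertinib KO cells had more reproducible H3K27Ac peaks at these genes than WT cells and fewer of RAD21 and PDS5A. The KO lists were shorter for all 3 antibodies, at 0.833-fold the WT list for H3K27Ac. H3K27Ac had 4 in WT and 7 in KO cells. Of the KO peaks 5 of 7 lacked a reproducible WT counterpart, beside 46.4% of the list, and of the WT peaks 1 of 4 lacked a KO one, beside 55.4%. The KO peaks included the 5′ ends of SPRY2, at chr13:80914029-80915773, of SPRY4 and of ETV5, and chr8:29201868-29203955 in DUSP4, with 14.3 and 13.3. The WT peak was chr12:89747080-89748812 at DUSP6. Without peaks on any IgG peak the counts were 4 and 4, and without peaks on an IgG peak of the same cells 4 and 5.

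RAD21 had 7 in treated WT and 3 in treated KO cells. The KO peaks lacking a reproducible WT counterpart were 0 of 3, beside 11.9% of the list, and the WT peaks lacking a KO one were 4 of 7, beside 77%. They lay at ETV4, upstream of SPRY2, at the SPRY4 5′ end (chr5:141703066-141706309) and inside DUSP4 (chr8:29197659-29199804). PDS5A had 8 in WT and 2 in KO cells. The shares without a counterpart were 0 of 2, beside 18.2%, and 6 of 8, beside 73.5%, and the 6 included all 5 of the 5′ ends that were reproducible in treated WT cells. At the genes KO cells thus had 0.429-fold the RAD21 and 0.25-fold the PDS5A peaks of WT cells, beside 0.263-fold and 0.325-fold for the whole lists. With lists of equal length the RAD21 counts became 2 and 3 and the PDS5A counts 1 and 2, which turns both orders.

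Rescue cells had more reproducible peaks at the 6 genes than KO cells for each antibody, in lists that were also longer. Untreated, H3K27Ac had 1 in KO and 6 in Rescue cells, RAD21 4 and 6, and PDS5A 1 and 5, where the whole lists differed 2.63-fold, 1.71-fold and 15.4-fold. Under osimertinib, H3K27Ac had 7 and 10, RAD21 3 and 5, and PDS5A 2 and 7, beside 1.56-fold, 2.54-fold and 2.80-fold for the lists. The H3K27Ac and PDS5A peaks of the DUSP6 5′ end were reproducible in both treatments in Rescue cells and in neither in KO cells, where they were deposited. With lists of equal length the counts were 1 and 1 untreated for H3K27Ac and 1 and 0 for PDS5A. Treated, the H3K27Ac counts were 7 and 5, the RAD21 counts 3 and 3 and the PDS5A counts 2 and 2. RAD21 untreated kept 4 and 6 in lists of equal length.

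Away from the 5′ ends, the peaks merged into 33 sites, of which 12 had a reproducible peak in at least 1 list and 10 were deposited in a single list. Beyond the 3′ end of DUSP4, between 33167 and 36508, RAD21 and PDS5A were listed in all 6 lists each. RAD21 was reproducible there in treated WT, treated KO and untreated Rescue cells and PDS5A in treated WT and treated KO cells. Within DUSP4, between 6409 and 12748, the H3K27Ac peaks were not all at 1 place. Treated WT and treated KO cells had overlapping reproducible peaks, from 7890 to 9384 and from 6409 to 10802. Untreated WT cells had a peak there from 7038 to 10766 just outside the limit, with an IDR of 0.0709, and treated Rescue cells had 1 from 6585 to 10772 with replicate values of 40.6 and 8.06 and an IDR of 0.464. The reproducible peak of treated Rescue cells lay further in, from 11056 to 12748. Untreated KO cells had peaks with an IDR of 0.308 and 0.636, and in untreated Rescue cells the 14042-bp peak reached this stretch. RAD21 was reproducible between 6409 and 12748 in both WT lists and in treated Rescue cells, and PDS5A was listed in 6 and reproducible in 0.

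Some further sites were reproducible in Rescue lists alone, though several of them were listed in other cells too. The H3K27Ac lists of Rescue cells held 14446 reproducible peaks untreated and 13245 treated. Those of WT and KO cells held 5108 to 10214. An H3K27Ac site upstream of ETV4, between -10887 and -9755, was listed in 5 lists and reproducible in both Rescue lists, at 22.8 and 16.9 untreated and 12.9 and 19.5 treated. A PDS5A site beyond the 3′ end of ETV4, between 25477 and 26251, was likewise reproducible in both Rescue lists, at 19.7 and 19.9, and at 32.9 and 11.3. Treated Rescue cells also had reproducible H3K27Ac upstream of DUSP6, from -21134 to -19886, upstream of DUSP4, from -22833 to -21568, and within ETV5, from 10489 to 11702. H3K27Ac was listed at the DUSP4 site in 3 lists and at the ETV5 site in 4.

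Cohesin and its regulator were largely listed at the same places. Of the 31 reproducible RAD21 peaks, 30 overlapped a deposited PDS5A peak of the same cells and 15 a reproducible one, and of the 23 reproducible PDS5A peaks, 22 overlapped a deposited RAD21 peak and 15 a reproducible one. Over whole lists these shares ranged from 67.7% to 98.9% and 12.7% to 77.0% for RAD21, and from 83.2% to 97.2% and 50% to 77.5% for PDS5A. Of the 33 reproducible H3K27Ac peaks, 26 overlapped a deposited RAD21 peak, where the lists ranged from 67% to 82.6%. These shares at the 6 genes lay within the range of the lists, but other overlaps did not. A deposited H3K27Ac peak lay under 29 of 31 RAD21 and 18 of 23 PDS5A peaks, above list ranges of 61% to 75% and 50.7% to 71%. Of the 33 H3K27Ac peaks, 26 overlapped a deposited PDS5A peak, above 39.8% to 75.9%. A reproducible H3K27Ac peak lay under 8 of 31 RAD21 peaks, below 29.6% to 47.2%, and 5 of 23 PDS5A peaks, within 20.4% to 42.7%. These differences were not tested.

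For each gene and antibody, the peak that ranked highest within its own list came most often from Rescue cells, though ranks in lists of unequal length show no change. Ranked by the lower replicate value among the reproducible peaks of its list, the DUSP4 H3K27Ac domain in treated Rescue cells lay at percentile 98.2 and the DUSP6 H3K27Ac peak of the same list at 97.0. RAD21 over the DUSP4 5′ end in untreated Rescue cells lay at 96.1, and RAD21 over the SPRY2 5′ end in treated Rescue cells, chr13:80912689-80916202, at 95.8. The upstream SPRY2 PDS5A peak lay at 95.2 in treated Rescue cells. The lowest of the RAD21 peaks so chosen was that of ETV4 in treated Rescue cells, at 21.1, and it lay at 2.27 by the first replicate column alone. The lowest of the PDS5A peaks was that of DUSP4 in treated KO cells, at 30.2. The median percentile over the genes was 75.8 with H3K27Ac, 91.1 with RAD21, over the 5 genes that had such a peak, and 54.3 with PDS5A.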

How the data were processed

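Per the submitters' processing notes, reads were handled on GRCh37 with MACS2 2.2.7.1, Bowtie2 2.4.2, deepTools 3.5.1, SAMtools 1.16, bedtools 2.30, FastQC and Trimmomatic. How MACS2 was set, its control and the IDR version are not given in the sources used here. The lists as deposited by the authors hold, for each peak, the −log10 p of 2 replicates, at least 3.00 in every row, and the −log10 of the global IDR. Depth per sample is unknown, as the lists give no read totals. The 24 lists rest on 48 samples, and the 12 H2A samples were not analysed here. Whether replicates are separate cultures is not stated.

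A peak with 1 bp or more in a window was taken, and 90 peaks on other sequences, mitochondrial among them, were left out. Reproducible means a −log10 global IDR of 1.301 or more, and a counterpart is a reproducible peak of the other list with 1 bp of overlap. Strands are textbook knowledge. Peaks given by position are, per gene and antibody, the highest-ranked in their list and the highest gained and lost for osimertinib in WT and for KO against WT under osimertinib; others were chosen after their values were seen. The genes, lists and limits were chosen with earlier results of these data known. A list of other MAPK targets was planned and not computed, since no GRCh37 annotation was at hand. Intervals are Wilson 95%. Code ran in Python 3.11.15 with matplotlib 3.10.9, scipy 1.17.1, pandas 2.3.3 and numpy 2.4.6, and on simulated data 4000 of 4000 overlaps came out right.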

Additional observations from a re-analysis of the deposited data

Results flagged for a closer look

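The change in the number of reproducible H3K27Ac peaks at the 6 genes under osimertinib differed in sign between genotypes. It was -1 in WT, 6 in KO and 4 in Rescue cells, so that KO exceeded WT by 7 and Rescue exceeded WT by 5. For RAD21 the change was 1 in WT and -1 in both KO and Rescue cells, which gives -2 for KO minus WT and -2 for Rescue minus WT. The whole H3K27Ac lists changed 2-fold in WT, 1.55-fold in KO and 0.917-fold in Rescue cells under osimertinib. The whole RAD21 lists changed 4.51-fold, 0.814-fold and 1.21-fold. Each value comes from 1 joint list per condition, and the differences between genotypes were not tested.

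The opposite signs depended on the setting. With every deposited H3K27Ac peak the counts were higher under osimertinib in all 3 genotypes, at 14 and 20 in WT, 13 and 28 in KO and 22 and 30 in Rescue cells. In WT cells H3K27Ac had 6 and 6 peaks within 50 kb and 4 and 4 without peaks on any IgG peak. With lists of equal length H3K27Ac had 5 and 1 in WT, 1 and 5 in KO and 5 and 10 in Rescue cells. RAD21 at equal length had 6 and 2 in WT, 4 and 3 in KO and 6 and 5 in Rescue cells, which turns the sign of both RAD21 differences.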

How the results depend on the processing

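No paired analysis was possible because each list joins its 2 replicates, the replicate columns carry no number and no test was made. Of 222 alternative values of the comparisons, 189 stayed within a set limit of the reported value and 33 moved beyond it. The limit was the counting interval for shares of peaks and 1.5 times for counts at the 5′ ends. With so few peaks the counting intervals were wide, and a share could stay inside while the order of the counts turned. For RAD21 in KO against WT under osimertinib, equal list lengths took the share to 60 from 30. That lay inside its interval of 10.8 to 60.3. The number of values that stayed is therefore no measure of robustness. For ranks it was the standard deviation between the values of the 2 replicate columns. Of 123 values for single genes, 53 moved. The cause was not tested except where the alternative's own construction fixes it. The share of peaks in the later-named list, given as a percentage of both lists, moved as follows. At an IDR of 0.01 it went to 0 from 44.4 for H3K27Ac in WT cells under osimertinib, to 100 from 63.6 for H3K27Ac in KO against WT under osimertinib, and to 0 from 20 for PDS5A there. It went to 100 from 83.3 and from 77.8 for PDS5A in Rescue against KO, untreated and treated. With lists of equal length it went to 16.7 for H3K27Ac and to 25 from 53.8 for RAD21 in treated against untreated WT cells, to 0 from 66.7 for PDS5A in KO cells, to 66.7 from 20 for PDS5A in treated KO against WT cells and to 0 for PDS5A in untreated Rescue against KO cells. Counting every deposited peak gave 60 in place of 100 for PDS5A in WT cells under osimertinib. PDS5A gave no value at an IDR of 0.01 for osimertinib in KO cells and for untreated KO against WT, since no peak was left.

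The next shares join the 3 genotypes for osimertinib and both treatments for KO against WT, which are given apart above. Found under osimertinib alone for H3K27Ac were 1 of 4 in WT, 6 of 7 in KO and 7 of 10 in Rescue cells. The whole lists had 68.5%, 55% and 28.6%. Taking any deposited peak as a counterpart removes most gains and losses by construction. Peaks found under osimertinib alone then went to 4.76% from 66.7% for H3K27Ac, to 0 from 33.3% for RAD21 and to 5.88% from 64.7% for PDS5A. Those found untreated alone went to 0 from 58.3% for H3K27Ac and from 43.8% for RAD21. In KO against WT, peaks in KO alone went to 12.5% from 62.5%, 0 from 14.3% and 0 from 33.3%, and in WT alone to 0 from 55.6%, 46.2% and 75%, for H3K27Ac, RAD21 and PDS5A. For PDS5A in WT alone, an IDR of 0.01 gave 100%. Combinations of gene and list with a peak at the 5′ end were 35, 36 and 34 of 36 with every deposited peak, and 7 for PDS5A at an IDR of 0.01. The median rank became 94.8%, 96.2% and 83.7% among every deposited peak. From a single replicate column it ranged from 73.4% to 75.5% for H3K27Ac, 87.1% to 90.7% for RAD21 and 53.0% to 60.6% for PDS5A. Windows of 10 kb or 50 kb, covered length, and leaving out IgG peaks moved no share beyond its interval, which was wide for counts this small. Read depth, which the lists do not carry, limits every comparison of list lengths.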
